A study of Mus musculus with 4 samples.

Results

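The genes described here are 46 genes of DNA replication and nucleotide supply, out of 20050 genes tested on 4 two-colour mouse arrays. Of the 20050, 12299 had a gene symbol. The others were counted under an annotation identifier or probe name, and shares and ranks over all genes include them. They were chosen by name, as genes that act in S phase and that E2F factors are known to control. All 46 had a probe on the array and all 46 passed the filter on dim probes. Gene expression was compared between transformed cell lines with mutated Cdk4 and Cdk6 and wild-type (WT) lines, to learn how the mutations alter the expression profile. No member passed the test over all genes. Pole2, the second subunit of DNA polymerase epsilon, came nearest and was lower in the mutant lines on every array, by 1.5-fold in the fit.

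All lines are immortal transformants that arose from mouse fetal liver cells given a p185 BCR-ABL1 transgene, so the controls carry this leukaemia oncogene too. The background was mixed C57BL/6J and CD-1. Both copies of Cdk4 (R24C) and both of Cdk6 (R31C) are mutated by knock-in in the R/R lines, substitutions known to keep INK4 inhibitors from binding these kinases. R/R clones 1, 2 and 3, each from a single transformed line, were labelled with Cy5 and hybridised against a WT pool in Cy3. On the remaining array an R/R pool was in Cy3 and the WT pool in Cy5. The stated design names 3 control and 3 R/R replicates, but the sample titles give the control only as a WT pool. What the pools held is not stated, so the R/R pool may share lines with the clones. The identifiers of clones 1 and 2 share a stem that clone 3 does not, and it is not said whether those clones came from separate embryos. The p-values therefore measure only the spread between these clones, taken with that of all genes, and it may be partly technical. Neither the R/R pool nor the WT pool adds to this spread. Cultures were asynchronous.

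Before S phase, the origin recognition complex together with Cdc6 and Cdt1 loads the Mcm2 to Mcm7 ring on DNA, and the Dbf4-dependent kinase Cdc7, Mcm10, Cdc45 and GINS then turn the ring into a working helicase. Primase and the replicative polymerases copy the strands, held by the Pcna clamp, while ribonucleotide reductase and thymidylate synthase supply nucleotides. Cyclin D with Cdk4 or Cdk6 phosphorylates RB, which otherwise holds back the E2F factors that transcribe many of these genes in late G1.

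RefSeq promoter sequences, from 250 bases before to 50 bases after the start site on GRCm38.p6, were matched by symbol for 38 of the 46 members. Both strands were searched for the E2F letters TTTCCCGC, TTTCGCGC, TTTGCCGC and TTTGGCGC. These letters stood in the promoters of 15 of the 38 members (39.5%), against 704 of 27025 genes with a promoter (2.60%). Counted by promoter, the shares were 15 of 45 (33.3%) and 744 of 32851 (2.26%). The members were chosen as genes known to be under E2F control, so this contrast cannot count as a result about them. The helicase loading genes had them most often, in 7 of 10, followed by 3 of 5 polymerase and primase genes. None of the 5 nucleotide supply genes had them in this window, which says only that these letters are not there. CCAAT, a motif that NF-Y binds and that can overlap the ends of the E2F letters, stood in 23 of the 38 members (60.5%) and in 41.1% of all genes with a promoter. The windows below show what the loading genes and Pole2 share: the match nearest to the start site with up to 10 bases on either side, turned so that the E2F letters, in capitals, read as searched. These windows were chosen after the counts were seen. A match is a description of the sequence and not a binding site.

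Cdc6 (chr11:98908003-98908030, minus strand): ccccaggcgaTTTCCCGCtctccaccgg
Cdt1 (chr8:122568037-122568064, plus strand): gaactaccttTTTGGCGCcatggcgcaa
Mcm3 (chr1:20820276-20820303, plus strand): cttcccaagtTTTCCCGCcacggaagtt
Mcm5 (chr8:75109350-75109377, minus strand): ggctggacgtTTTGGCGCgaaagttctt
Mcm6 (chr1:128359735-128359762, minus strand): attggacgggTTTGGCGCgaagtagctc
Mcm7 (chr5:138171850-138171877, minus strand): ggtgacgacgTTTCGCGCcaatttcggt
Orc1 (chr4:108579417-108579444, minus strand): ggagaaaactTTTCGCGCcactaaccga
Pole2 (chr12:69228163-69228190, plus strand): atgttcgcgaTTTGGCGCcaccgccgac

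The whole promoters of the members with the lowest and the highest fitted value are shown as the ends of the range. Neither member was called, and no relation between promoter letters and expression was tested. That of Pole2, at chr12:69228141-69228440 on the minus strand, holds the E2F letters just after the start site, in capitals here as their reverse complement GCGCCAAA. Fen1, the member with the highest value, has a pair of RefSeq promoters, and neither holds the E2F letters or CCAAT. The one at chr19:10203872-10204171 on the minus strand is shown.

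Pole2: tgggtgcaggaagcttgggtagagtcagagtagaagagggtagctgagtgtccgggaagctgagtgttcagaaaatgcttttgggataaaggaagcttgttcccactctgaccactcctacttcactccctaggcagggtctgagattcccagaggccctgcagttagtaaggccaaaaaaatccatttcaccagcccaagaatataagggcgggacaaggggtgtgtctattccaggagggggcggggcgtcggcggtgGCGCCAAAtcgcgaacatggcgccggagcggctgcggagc
Fen1: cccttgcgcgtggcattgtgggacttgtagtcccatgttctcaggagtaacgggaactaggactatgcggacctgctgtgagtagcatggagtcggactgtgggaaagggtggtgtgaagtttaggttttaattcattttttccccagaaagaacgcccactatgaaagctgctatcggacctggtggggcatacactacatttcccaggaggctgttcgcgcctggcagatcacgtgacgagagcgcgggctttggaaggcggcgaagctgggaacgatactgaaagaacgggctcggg

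Each value below is a log2 ratio, positive where the R/R line had more RNA than the WT pool, on the dye-swapped pool array as well. The fitted value is the average of the clone mean and the pool, and its SE rests on the spread between the clones and on that of all genes. Per channel, 42.8% to 53.4% of spots were well above background, and the number of arrays limits the precision. Every member was well above background on every array in both channels, except Cdc7, whose WT channel reached that mark on 3 of 4 arrays. All 11 B lineage markers were well above background in every channel, with a median log2 ratio of 0.34, -0.30 and 0.30 in clones 1, 2 and 3 and 0.01 in the pool; their part in the members' values was not tested. No erythroid marker was above background in every channel, and 7 of 8 were so in no R/R channel. Of 8 T lineage markers 3 were above background in every R/R channel (Cd3e, Cd4 and Cd5), as were 3 of the 7 myeloid markers on the array (Elane, Csf1r and Itgam), while Mpo and Cd14 were in none. In bulk RNA, fewer cells expressing a gene and less RNA per cell cannot be told apart.

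Taken as a list, the replication and nucleotide genes lay slightly above 0. No member was called at an adjusted p under 0.05 (limma, Benjamini-Hochberg over all genes), where 0.150% of all genes were called higher and 0.374% lower. At an unadjusted p under 0.05, 6 members were higher and 1 was lower, against 7.26% and 8.09% of all genes. The fitted value was above 0 for 33 of 46 members (71.7%, against 46.4% of all genes), with a median of 0.09 against -0.02 over all genes. The members lay above 0 on all 4 arrays in 9 cases and below 0 on all 4 in 4 cases, where the shares over all genes were 14.6% and 16.2%. The median of the members was 0.11 in clone 1, 0.10 in clone 2, 0.01 in clone 3 and 0.08 in the pool. The 95% interval of every member lay within 2-fold in either direction, and that of 39 members within 1.5-fold. The smallest difference called in any gene was 0.74, larger than the fitted value of any member. The plot of all members by array shows values on both sides of 0 for most genes.

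**Figure D1:**
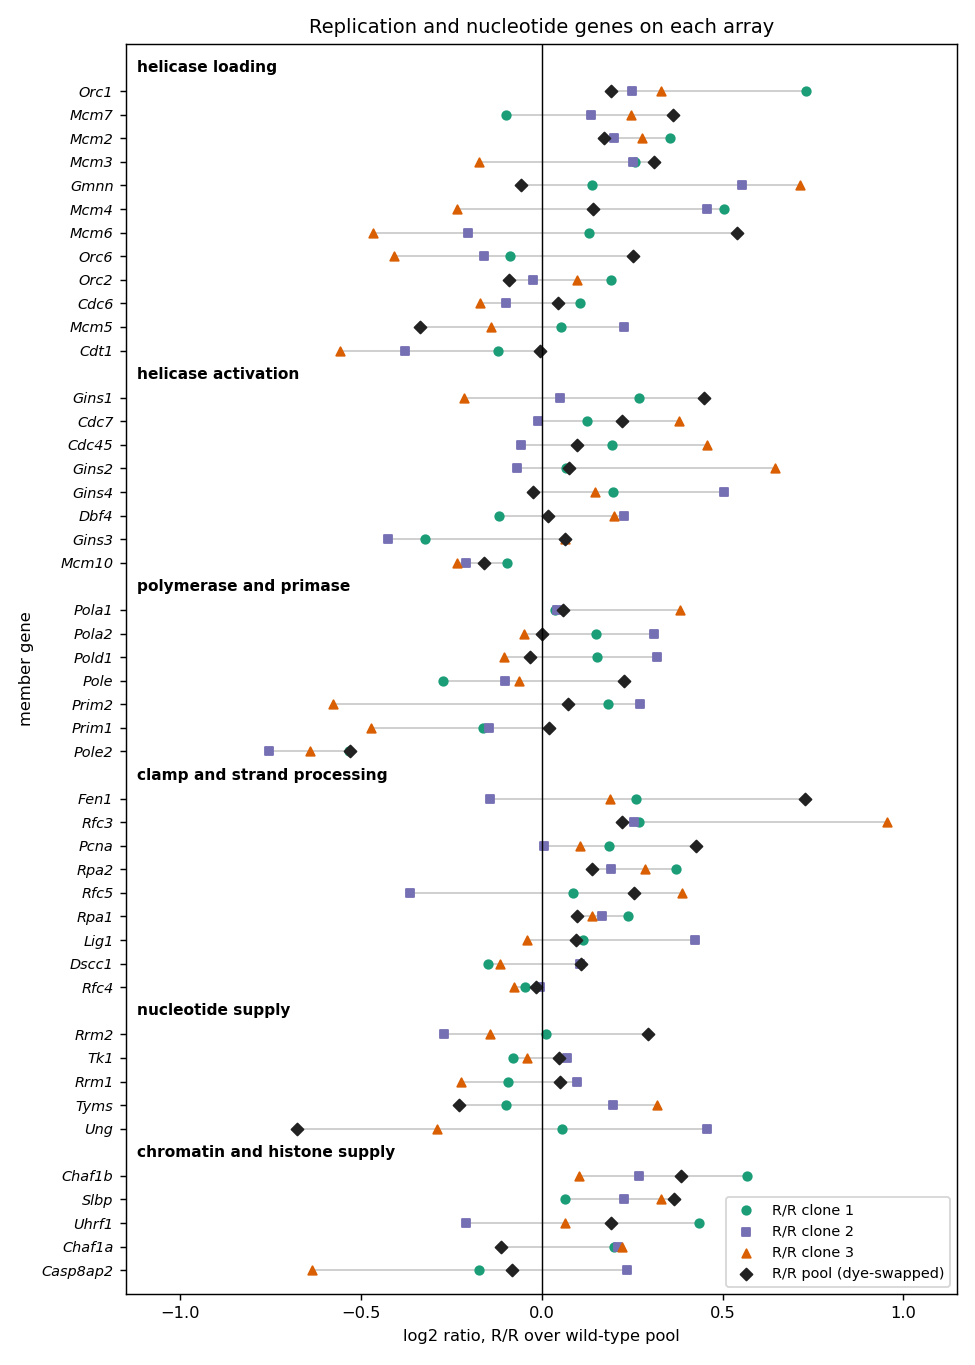
Log2 ratio of R/R over the WT pool (horizontal axis) for each of the 46 members (vertical axis, grouped by role) on the arrays of clones 1, 2 and 3 and the dye-swapped pool; the grey line spans the 4 values. Pole2 lies between -0.75 and -0.53 on all 4 arrays, and 9 members lie above 0 on all 4.

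**Figure D2:**
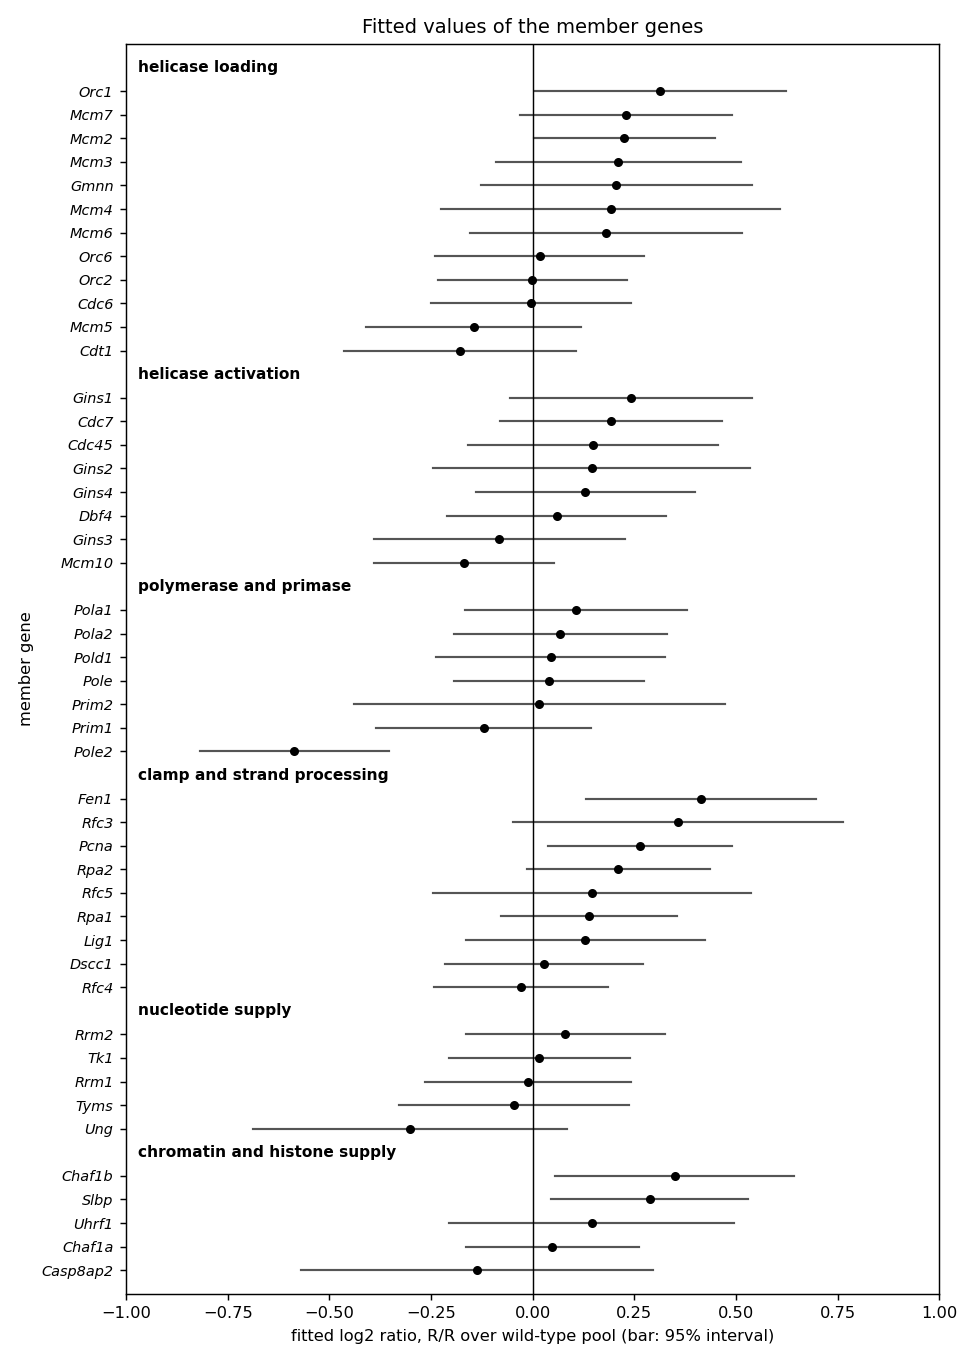
Fitted log2 ratio of R/R over the WT pool (points) with its 95% interval (bars) for each member, grouped by role. No interval reaches a 2-fold difference, and those of Pole2 (-0.82 to -0.35), Fen1, Chaf1b, Slbp, Pcna, Orc1 and Mcm2 leave out 0 before adjustment over all genes.

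The 12 helicase loading genes had a median of 0.19, with 8 above 0 and none called. Orc1, the largest subunit of the origin recognition complex, was 0.73 in clone 1, 0.25 in clone 2, 0.33 in clone 3 and 0.19 in the pool. It was above 0 on every array and highest in clone 1, with a fitted value of 0.31 ± 0.12 (SE, 3 clones and 1 pool; limma adjusted p = 0.316). Mcm2, a subunit of the helicase ring, was 0.36, 0.20 and 0.28 in clones 1, 2 and 3 and 0.17 in the pool. Its arrays lay close together, and the fitted value was 0.22 ± 0.09 (limma adjusted p = 0.320). Mcm4, another ring subunit, was 0.50 and 0.46 in clones 1 and 2, -0.24 in clone 3 and 0.14 in the pool. Clone 3 thus lay on the other side of 0 from the other arrays, and the fitted value was 0.19 ± 0.17 (limma adjusted p = 0.611). Cdt1, which brings the ring to origins, had the lowest fitted value of the role, -0.18 ± 0.11 (limma adjusted p = 0.494). It was -0.12, -0.38 and -0.56 in clones 1, 2 and 3 and near 0 in the pool.

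The other ring subunits were fitted at 0.23 for Mcm7, 0.21 for Mcm3, 0.18 for Mcm6 and -0.15 for Mcm5, so 5 of the 6 lay above 0 and none was called. On the clones alone the signs of Mcm6 (-0.18) and Mcm5 (0.05) turned. Mcm6 spread widely, from -0.47 in clone 3 to 0.54 in the pool. Gmnn, the geminin gene whose product holds Cdt1 back, was fitted at 0.21 ± 0.13. Orc2 and Orc6, further subunits of the origin recognition complex, and Cdc6, the loading ATPase, had fitted values within 0.02 of 0. For Orc6 this averaged opposite values, since it lay below 0 in each clone, with a mean of -0.22, and at 0.25 in the pool. A less bright probe for Cdc6 gave 0.27, the widest gap between probes of a member. Clone 1 was the highest of the clones for 9 of the 12 loading genes and clone 3 the lowest for 7, while over all genes clone 1 was highest for 28.1% and clone 3 lowest for 40.3%. The loading genes had medians of 0.13 in clone 1, 0.17 in clone 2, -0.16 in clone 3 and 0.16 in the pool. The SD of the role's median over the clones was 0.18.

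The 8 helicase activation genes had a median of 0.14, with 6 above 0 and none called, and without clone 3 the median was 0.06. Gins1, a subunit of the GINS complex, had the highest fitted value, 0.24 ± 0.12 (limma adjusted p = 0.407). It was 0.27, 0.05 and -0.21 in clones 1, 2 and 3 and 0.45 in the pool, and so was led by the pool. Gins2, in the same complex, was 0.07, -0.07 and 0.64 in clones 1, 2 and 3 and 0.08 in the pool. Clone 3 alone stood high, and the fitted value was 0.15 ± 0.16 (limma adjusted p = 0.689). Gins4 was fitted at 0.13 and Gins3 at -0.08, and in clone 3 the GINS genes ranged from -0.21 to 0.64. Mcm10, which helps to activate the helicase, lay below 0 on every array, from -0.10 in clone 1 to -0.23 in clone 3. Its fitted value was -0.17 ± 0.09 (limma adjusted p = 0.426). Cdc7 was fitted at 0.19, Dbf4 at 0.06 and the helicase cofactor Cdc45 at 0.15.

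Among the 7 polymerase and primase genes, Pole2 stood lowest of all members. It was -0.53 in clone 1, -0.75 in clone 2, -0.64 in clone 3 and -0.53 in the pool, so all arrays lay on the same side and within a narrow range. The fitted value was -0.59 ± 0.09 (SE, 3 clones and 1 pool; 95% interval -0.82 to -0.35), with an unadjusted p of 0.00100 and a limma adjusted p of 0.0873, short of the threshold. It ranked 395 from the bottom among the 20050 genes. Only 1 probe measured it. Pole, the catalytic subunit of the same enzyme, was fitted at 0.04 ± 0.09. Pole was -0.27, -0.10 and -0.06 in clones 1, 2 and 3 and 0.23 in the pool, so it too lay below 0 in each clone. The small subunits Pole3 and Pole4, named here after their values were seen, were fitted at 0.08 and 0.16. The difference between Pole2 and its partner subunits was not tested.

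The fitted values of the rest of this role lay between -0.12 and 0.11. Pola1, the catalytic subunit of polymerase alpha, was 0.04 in clones 1 and 2, 0.38 in clone 3 and 0.06 in the pool. Its fitted value, 0.11 ± 0.11 (limma adjusted p = 0.669), was the highest of the role, and without clone 3 it was 0.05. Prim2, the large primase subunit, had the widest range over the clones in the role, at 0.18, 0.27 and -0.58, with 0.07 in the pool. Its fitted value was 0.02 ± 0.18 (limma adjusted p = 0.973). Prim1, the catalytic primase subunit, was fitted at -0.12, with a clone mean of -0.26 and 0.02 in the pool. Pola2, the regulatory subunit of polymerase alpha, was fitted at 0.07 and Pold1, the catalytic subunit of polymerase delta, at 0.04. The median of the role was 0.04, and in clone 3 it was -0.10, with 1 of the 7 genes above 0.

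The 9 genes of the clamp and of strand processing had a median of 0.15, with 8 above 0 and none called. Fen1, the nuclease that trims flaps from Okazaki fragments, had the highest fitted value of all members. It was 0.26, -0.14 and 0.19 in clones 1, 2 and 3 and 0.73 in the pool. The pool lay well above the clones, and clone 2 lay below 0. The fitted value was 0.41 ± 0.11 (SE, 3 clones and 1 pool; 95% interval 0.13 to 0.70; limma adjusted p = 0.193), and on the clones alone it was 0.10. Pcna, the sliding clamp, showed the same order, with 0.19, 0.01 and 0.10 in clones 1, 2 and 3 and 0.43 in the pool. Its fitted value was 0.26 ± 0.09 (limma adjusted p = 0.269), and 0.10 on the clones alone.

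The clamp loader subunits had fitted values from -0.03 to 0.36, which were not tested against each other. Rfc3 was fitted at 0.36 ± 0.16 (limma adjusted p = 0.370), with 0.27 and 0.26 in clones 1 and 2, 0.22 in the pool and 0.95 in clone 3. Rfc5 was 0.09, -0.36 and 0.39 in clones 1, 2 and 3 and 0.26 in the pool, the widest range over the clones in this role (fitted value 0.15 ± 0.16, limma adjusted p = 0.687). Rfc4 lay within 0.08 of 0 on every array, with a fitted value of -0.03 ± 0.09 (limma adjusted p = 0.893). Of the other genes, both subunits of the single-strand binding protein lay above 0 on every array, Rpa1 from 0.10 to 0.24 and Rpa2 from 0.14 to 0.37. Their fitted values were 0.14 and 0.21. Lig1, the ligase that joins Okazaki fragments, was fitted at 0.13 and Dscc1, of the alternative clamp loader, at 0.03.

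The 5 nucleotide supply genes centred on 0, with a median of -0.01 and 2 above 0. Rrm2, the small subunit of ribonucleotide reductase, was 0.01, -0.27 and -0.14 in clones 1, 2 and 3 and 0.29 in the pool. The pool and the clones thus fell on either side of 0 apart from clone 1, and the fitted value was 0.08 ± 0.10 (limma adjusted p = 0.727). Ung, the uracil-DNA glycosylase, was counted in this role although it removes uracil from DNA rather than supplying nucleotides. Ung was 0.06, 0.46 and -0.29 in clones 1, 2 and 3 and -0.68 in the pool. Its fitted value was the lowest of the role, -0.30 ± 0.15 (limma adjusted p = 0.421), but on the clones alone it was 0.07. Rrm1, the large reductase subunit, Tyms, thymidylate synthase, and Tk1, thymidine kinase, had fitted values of -0.01, -0.05 and 0.02.

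The 5 chromatin and histone supply genes had a median of 0.14, with 4 above 0 and none called. Chaf1b, a subunit of the histone chaperone CAF-1, was 0.57, 0.27 and 0.10 in clones 1, 2 and 3 and 0.38 in the pool. It was above 0 on every array, with a fitted value of 0.35 ± 0.12 (limma adjusted p = 0.263), and a less bright probe gave 0.46. Slbp, which binds the stem-loop of histone mRNA, was 0.07, 0.23 and 0.33 in clones 1, 2 and 3 and 0.37 in the pool. It too was above 0 throughout, at 0.29 ± 0.10 (limma adjusted p = 0.262), with 0.43 from a less bright probe. Casp8ap2, needed for histone gene expression, had the widest range over the clones of all members, from -0.64 in clone 3 to 0.23 in clone 2. Its fitted value was -0.14 ± 0.17 (limma adjusted p = 0.735), and a less bright probe gave -0.10. Uhrf1, which brings the maintenance DNA methyltransferase to new DNA, was fitted at 0.14 and Chaf1a, the large CAF-1 subunit, at 0.05.

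**Figure D3:**
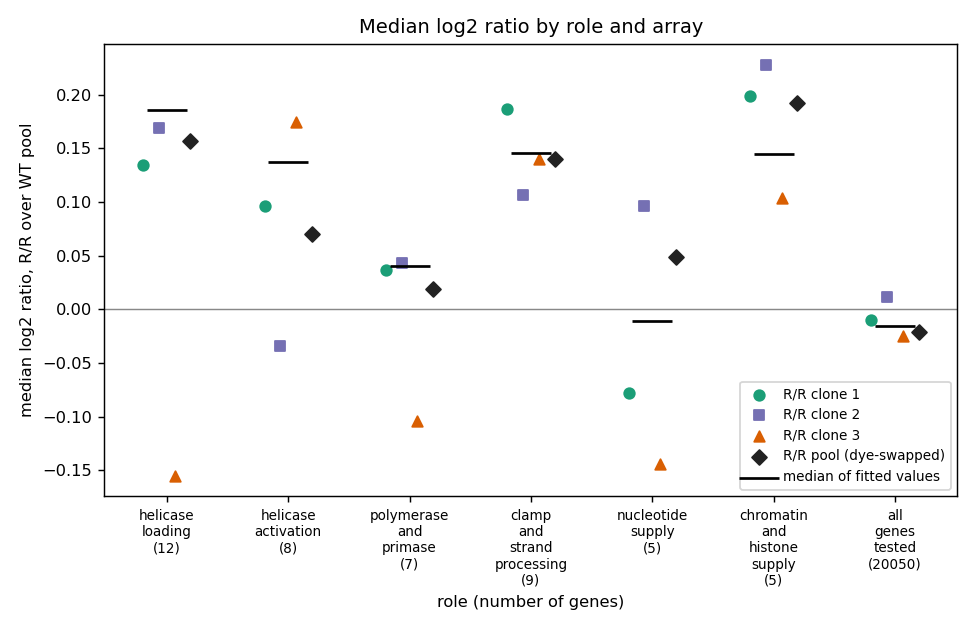
Median log2 ratio of R/R over the WT pool (vertical axis) of each role and of all genes tested, on each of the 4 arrays (symbols) and for the fitted values (black bars). The helicase loading median is -0.16 in clone 3, against 0.13 to 0.17 elsewhere, while the nucleotide supply median of the fitted values lies at -0.01.

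Loading, polymerase and nucleotide genes were set beside each other by their counts. The fitted value was above 0 for 8 of 12, 5 of 7 and 2 of 5 genes, and no gene in these roles was called. Their medians of 0.19, 0.04 and -0.01 were not tested against each other. On the clones alone the loading median was 0.09 and the polymerase median -0.04. With no dye term the medians of these roles were 0.10, -0.01 and -0.03. Less the median of each gene's chromosome on each array, a setting chosen after seeing the data, they were 0.10, 0.04 and 0.01. The loading median was then below that of the clamp and strand processing genes, at 0.16. Without clone 1 the loading median was 0.11, the polymerase median was -0.00499 without clone 2, and the nucleotide median was 0.01 without clone 1 and 0.02 without clone 3. Within each role the fitted values ran from -0.18 to 0.31, from -0.59 to 0.11 and from -0.30 to 0.08, so the roles overlapped. The lowest value among the nucleotide genes was that of Ung, which does not supply nucleotides, and the next was Tyms at -0.05.

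Other genes of the same pathways gave the following background. Of 32 further replication genes, none was called, 16 lay above 0 and the median was 0.00, with 0 higher and 3 lower at an unadjusted p under 0.05. The lowest was Pold4, a small subunit of polymerase delta, at -0.48, and the highest was Rpa3, the smallest subunit of the single-strand binding protein, at 0.20. Of 24 further nucleotide synthesis genes, none was called, 17 lay above 0 and the median was 0.14, with 7 higher and 1 lower at an unadjusted p under 0.05. The highest was Ppat, the first enzyme of purine synthesis, at 0.38. The lowest was Mthfd2, a mitochondrial enzyme of folate metabolism, at -0.60. Among 13 mitosis markers none was called, 11 lay above 0, and 8 were higher and 1 lower at an unadjusted p under 0.05. The median of these markers was 0.27, with 0.25, 0.23, 0.18 and 0.23 in clones 1, 2 and 3 and the pool. It was above the median of the replication members on every array, and its part in their values was not tested.

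Values in clone 3 were also set beside the position of the genes in the genome, without a test. Over 775 tested genes of chromosome 5, the median log2 ratio was 0.31 in clone 3, with 77.4% of genes above 0. It was 0.00 in clones 1 and 2 and 0.05 in the pool. When the chromosome was divided by gene order into 5 blocks of 155 genes, the clone 3 median lay between 0.27 and 0.34 in every block. Over the 11520 tested genes placed on other chromosomes, it was -0.02. No DNA measurement was used here.

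Among the members, 9 lie on chromosome 5: Mcm7, Cdc7, Dbf4, Pole, Rfc3, Rfc5, Tyms, Ung and Slbp. In clone 3 their median was 0.32, with 7 of 9 above 0, and clone 3 was the highest of the clones for 7 of them. The 37 other members had a median of -0.05 in clone 3, with 16 above 0, and clone 3 was the lowest of the clones for 20 of them. In clone 1 the order was the other way, with medians of 0.06 on chromosome 5 and 0.14 elsewhere, and in clone 2 they were 0.20 and 0.07. In the pool they were 0.22, with 7 of 9 above 0, and 0.07. The members on chromosome 5 thus lay above the others in clone 2 and the pool as well as in clone 3. Rfc3, at 0.95 in clone 3, was still 0.65 once the chromosome median of each array was subtracted, and Slbp came to 0.02 there. Ung went against the chromosome, at -0.29 in clone 3, or -0.59 after subtraction. The loading genes off chromosome 5 had a clone 3 median of -0.17, as low as with Mcm7, the role's member on that chromosome.

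**Figure D4:**
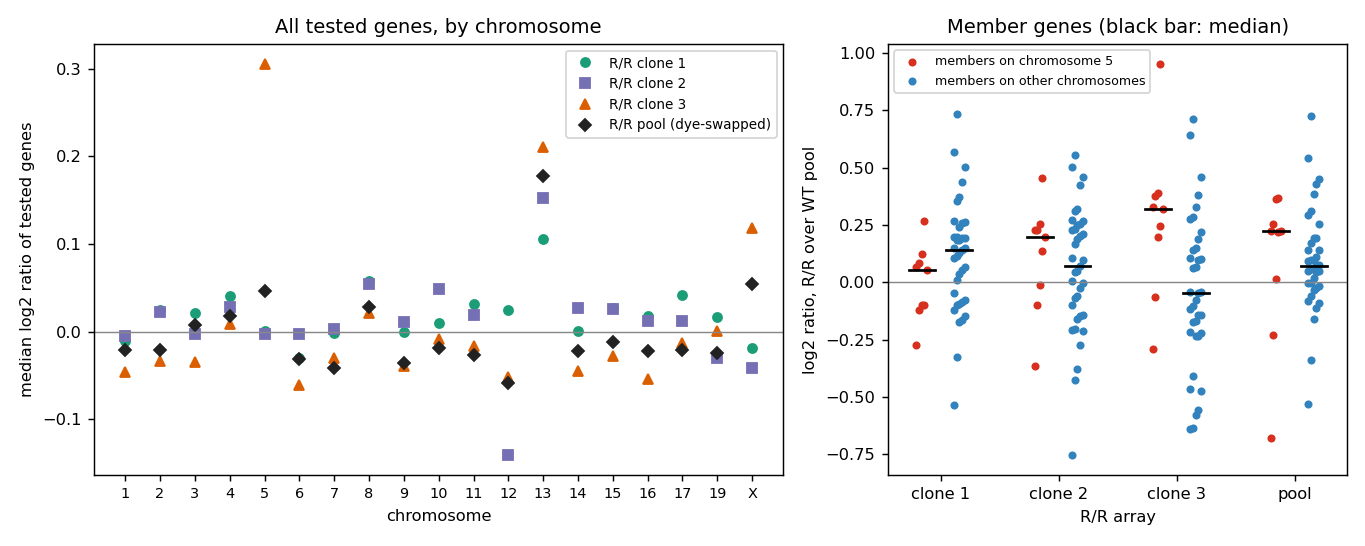
Left, the median log2 ratio of all tested genes on each chromosome shown, by array. Right, the log2 ratio of each member on each array, with the 9 members on chromosome 5 in red, the 37 others in blue and black bars at the medians. In clone 3 chromosome 5 stands at 0.31, and its members have a median of 0.32 against -0.05 for the others.

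Some other chromosomes with members also had medians away from 0, and their part in the members' values was not tested. The X chromosome, with Pola1, had a median of 0.12 in clone 3, where Pola1 was 0.38, or 0.26 after subtraction. Chromosome 13, with Gmnn, had medians of 0.11 to 0.21 on the 4 arrays, and Gmnn was 0.04 ± 0.12 once these were subtracted. Chromosome 12, with Pole2 and Rrm2, had a median of -0.14 in clone 2. Less the chromosome medians Pole2 was -0.53 (limma adjusted p = 0.0868). Of the 10 tested genes nearest to Pole2, 9 lay below 0, with a median of -0.17. Klhdc2, at -0.97, was lower than Pole2 and, like it, lay below 0 on every array, at -0.91 in clone 3. Whether Pole2 shares a difference with its neighbours was not tested. In clone 3, where Pole2 was -0.64, 8 of these 10 neighbours lay above 0, and in clone 2 none did. Prim1 lies on chromosome 10 with 26 tested genes between it and the mutated Cdk4, and Dbf4 on chromosome 5 with 14 between it and Cdk6. Their fitted values were -0.12 ± 0.11 and 0.06 ± 0.11.

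Differences between the clones were set beside those of all genes. The median SD over the clones was 0.19 for the members and 0.17 for all genes. Between clones 1 and 2, 1 member differed by over 1.5-fold (2.17%, against 6.83% of all genes). Between clones 1 and 3 it was 4 members (8.70%, against 7.65%), with a median absolute difference of 0.27 on the log2 scale against 0.18, and between clones 2 and 3 it was 7 (15.2%, against 14.0%). The pool lay above all 3 clones for 14 members (30.4%, against 20.7% of all genes) and below all 3 for 12 (26.1%, against 24.4%). These differences between lines had no test.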

How the data were processed

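RNA of 3 R/R clones and an R/R pool was compared with a WT pool on 4 arrays of 1 slide. Feature Extraction 11.5.1.1 gave, per the file headers, intensity as median brightness of spot and local background, and a log10 ratio of its processed Cy5 over Cy3. The authors also deposited a log2 ratio table without saying how it was made. Matched by position, it correlated with the values used here at r from 0.989 to 0.997 across spots, with the same direction and medians within 0.00397 of 0. Its row numbers match no probe name.

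With limma 3.58.1 in R 4.3.3, normexp background correction (offset 50) of the median intensities was followed by loess within each array. Control spots had no weight, and 210 to 265 outlier spots per array were left out. Of 55681 probes, 27656 had a symbol through their RefSeq accession. The filter kept 26448 probes that 3 or more arrays measured well above background in one genotype. Each gene was represented by its brightest probe. The model had a genotype and a dye term, with 2 residual degrees of freedom from the clones; the single WT pool adds no spread. Tests were two-sided. Scripts were tested on simulated data.

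Members and lists were chosen with earlier results of these data known. By the rule for named genes, values per array are given for members at unadjusted p under 0.05 and for the highest, lowest and most spread of each role. Alternatives covered the normalisation, the filter, the probes, the model and each clone left out.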

Additional observations from a re-analysis of the deposited data

Results flagged for a closer look

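In 6 of the 46 members (13%) all 3 clones lay on one side of 0 and the pool on the other, against 11.9% of all genes. The difference between clones and pool, which also differ in dye, was not tested. The mean of the clones minus the pool was 0.53 for Gmnn, 0.32 for Chaf1a and 0.31 for Gins4, where the clones lay above 0. It was -0.47 for Orc6, -0.37 for Pole and -0.28 for Prim1, where the clones lay below 0.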

How the results depend on the processing

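No member was called under the other settings except Pole2, which was called alone at an adjusted p under 0.10 (1 member) and with no dye term (1 member, -0.61, limma adjusted p = 0.00853). With no dye term 1 of the further replication genes and 1 of the further nucleotide genes were called too, where 490 of all genes were called higher and 650 lower, against 30 and 75 as reported. Pole2 ranged from -0.67 to -0.53 over all settings, with adjusted p from 0.00853 to 0.376. The number of members at an unadjusted p under 0.05, 7 as reported, was 3 with the scanner software's ratios, 2 with median centring and 3 to 10 with a clone left out, the lowest without clone 1. The clamp and strand processing median, 0.15 as reported, was 0.0998 with the scanner's ratios, 0.102 on the clones alone, 0.19 with clones 1 and 2 averaged and 0.14 to 0.23 with a clone left out. The chromatin median ran from 0.0602 to 0.22 with a clone left out, lowest without clone 1 and highest without clone 2. With a clone left out the loading median ran from 0.11 to 0.17, the activation median from 0.06 to 0.15, the polymerase median from -0.00499 to 0.05 and the nucleotide median from -0.05 to 0.02. Some members changed sign. Prim2 was -0.0404 on the clones alone, -0.012 with no dye term, -0.0508 with clones 1 and 2 averaged and -0.062 to 0.15 with a clone left out (-0.0395 without clone 1). Rrm2 was -0.13 on the clones alone and -0.0274 with no dye term, and Ung was 0.0747 on the clones alone. Over all members, 11 changed sign on the clones alone and 8 with no dye term. Subtracting chromosome medians was chosen after seeing the data. The strict filter left 45 members. The deposited log2 table was not run as an alternative, since its rows could not be named. No paired analysis was possible because only the clones carry several replicate numbers and the WT pool is shared. With 3 clones and 1 pool, no difference under 0.74 on the log2 scale was called in any gene in the fit as reported.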
